A study of Mus musculus with 11 samples.

Results

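The 48 genes described here carry out DNA replication (20 genes) and mitosis (28 genes). They were taken by symbol from a list of replication and mitosis genes, out of 45886 genes in the deposited files, and all 48 were present in every library. E2f1 was counted with the replication genes and Foxm1 with the mitosis genes, after the genes that these transcription factors are known to control. The animals were adult C57BL/6 mice, either wild type or Eltd1-/-, and the tissue was healthy brain or an intracranial tumour of GL261, a mouse glioma cell line. In the mice of all groups, as the design text describes them, the ribosomal protein L10a was fused to eGFP and expressed from the VE-cadherin promoter, an endothelial promoter, while the grafted GL261 cells came from a cell line and not from these mice. Tagged ribosomes were pulled down with beads carrying an antibody to GFP (translating ribosome affinity purification), and the recovered RNA was sequenced. The libraries came from wild type tumour (n = 3), Eltd1-/- tumour (n = 2), wild type brain (n = 3) and Eltd1-/- brain (n = 3), each from a separate mouse sample per the labels' protocols. Levels are in FPKM, which scales fragments to transcript length and to library size, so that levels of different genes can be set side by side per length.

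Cells that divide first license their replication origins by loading the MCM helicase, then fire them and copy the DNA with polymerases, a sliding clamp and a supply of deoxynucleotides. In mitosis, cyclin-dependent and Aurora kinases condense the chromosomes and build the spindle, the spindle checkpoint holds anaphase until all centromeres are attached, and motor proteins and the midzone then separate the daughter cells. Endothelial cells of the healthy adult brain are largely quiescent, while glioma cells divide and the vessels of a growing tumour can also contain dividing cells.

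Adgrl4, the current symbol of Eltd1, was measured at 5.82 to 23.6 FPKM in the 5 Eltd1-/- libraries and at 27.4 to 192 FPKM in the 6 wild type libraries, with no overlap. FPKM sums were between 477911 and 641665 per library, and 8979 genes (wild type tumour replicate 2) to 15434 genes (wild type brain replicate 3) were above 0. In wild type tumour replicate 2, 23.2% of the 9969 genes with a median of at least 5 FPKM over all libraries were listed at 0, so a 0 in that library is weak information. The summed level of 16 endothelial markers, none of them at 0 throughout, was 410.0 to 1008 FPKM in the tumours and 1899 to 2615 FPKM in the brains. Markers of other cells were present too. The sum of 11 neuron markers was 101.0 to 2928 FPKM in the tumours and 4703 to 6460 FPKM in the brains, and that of 9 neural progenitor and glioma markers was 1630 to 2535 FPKM in the tumours and 484 to 816 FPKM in the brains. The 14 microglia and macrophage markers summed to 104.0 to 284 FPKM in the tumours and 24.99 to 57.9 FPKM in the brains. The glioma and myeloid marker sums were thus higher in every tumour library than in any brain library, as 42 of the 48 replication and mitosis genes were. Of the single markers in wild type mice, 6 of the 9 glioma markers rose in tumour and 1 fell (limma, adjusted p under 0.05). Of the 14 myeloid markers, 3 rose and 0 fell, while 7.7% of all genes tested rose and 11.7% fell. Sums of 8 astrocyte, 8 oligodendrocyte and 5 erythrocyte markers were lower in every tumour library than in any brain library. Those of mural cell, fibroblast and lymphocyte markers overlapped. The part of these cells in the results below was not tested. In bulk pull-downs such as these, a different number of cells of a type and a different amount of RNA per cell cannot be told apart.

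The comparison of tumour with healthy brain asked which of these genes differed in level between the pulled-down RNA of the tissues. In wild type mice, 44 of the 48 genes rose in tumour and 0 fell, on log2(FPKM + 1) with limma and a Benjamini-Hochberg adjusted p under 0.05. Over all 15607 genes tested, 7.7% rose and 11.7% fell. The median log2 change of the 48 genes was 4.58, and 4.52 without the 7 genes listed at 0 in every wild type brain library, beside a median of -0.26 over all genes tested. Topoisomerase Top2a, the cyclin-dependent kinase Cdk1, the anaphase activator Cdc20 and the cyclin Ccnb1 were among the members with large changes on this scale, at 7.52 ± 0.58, 6.91 ± 0.51, 6.40 ± 0.50 and 6.40 ± 0.55 (SE). The order of such genes depends on the pseudocount, since their brain levels were near 0. Other scalings moved the whole distribution and left the count of members at 44 or 45. The rises among all genes called were 39.7% of them as deposited, with 52.8% after upper quartile scaling, 52.2% after quantile normalization and 96.2% after scaling to the endothelial marker sum, where the median of all genes was -0.07, 0.01 and 0.87, and 44, 44 and 45 of the 48 genes rose. The 3 wild type tumours did not overlap the 3 wild type brains for 44 of the 48 genes, beside 12.7% of all genes tested. For 42 of the 48 genes, all 5 tumour libraries lay above all 6 brain libraries, which held for 8.73% of all genes tested. All 48 passed the filter on low values, 23 of them through the tumour libraries alone, since fewer than 2 brain libraries reached 1 FPKM. A gene that passes a filter in this way is selected through its tumour level, which favours a difference, although Ube2c did not pass the test. The counts, and the p-values of these 23 genes (Cdc20 and Kif23 among them), therefore describe these libraries and are not support in themselves. The map of levels by gene and library shows the separation.

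**Figure D1:**
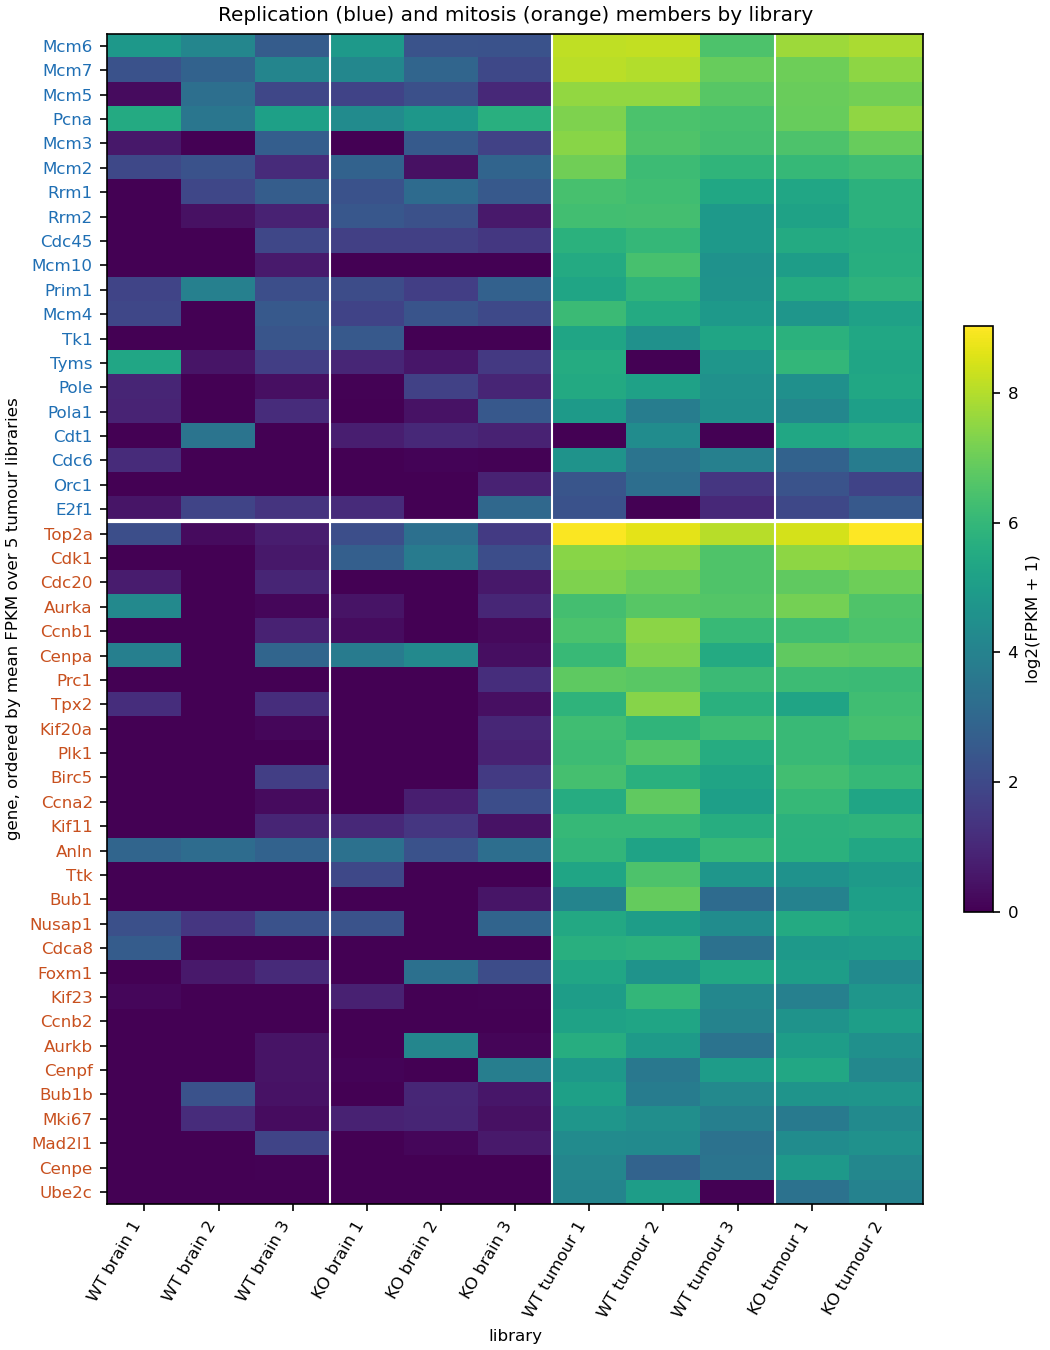
Heat map of the level of each of the 48 genes (rows, replication genes in blue and mitosis genes in orange, each ordered by mean FPKM over the 5 tumour libraries) in each of the 11 libraries (columns), as log2(FPKM + 1), with WT for wild type and KO for Eltd1-/-. The tumour columns are bright nearly throughout, with 4 genes at 0 in a tumour library (Cdt1, Tyms, E2f1 and Ube2c), and the brain columns are dark, with Pcna, Mcm6 and Mcm7 as the brightest replication genes.

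Because replication and mitosis genes are known to be switched on at successive stages of the cell cycle through different promoter elements, the promoters of both sets of members were compared. Motif matches were not related to levels. E2F factors bind GC-rich sites in the promoters of many replication genes. Many mitosis genes instead carry a cell cycle genes homology region (CHR), bound by the MuvB complexes, with CCAAT boxes bound by NF-Y upstream. RefSeq promoter windows of GRCm38.p6, from 250 bases before to 50 bases after the start, were available for 41 of the 48 genes. They were 19 windows of 18 replication genes and 24 windows of 23 mitosis genes, since Mcm7 and Prc1 had more than 1. Shares are of windows. Both strands were searched for E2F sites (as TTCGCGC, also in the form TTGGCGC, also in the form TTCCCGC, and also in the form TTGCCGC), for the CHR (as TTTGAA, also in the form TTCGAA) and for the CCAAT box. Matches of different motifs were counted separately where they overlapped. An E2F site was found in 12 of 19 replication windows (63.2%) and 3 of 24 mitosis windows (12.5%), beside 9.57% of all 32851 windows in the table. A CHR was found in 3 of 19 replication windows (15.8%) and 19 of 24 mitosis windows (79.2%), beside 19.2% of all windows. CCAAT boxes were in 73.7% of the replication windows and 83.3% of the mitosis windows, beside 37.4% of all. The median GC content was 57.3% and 59.8% in the replication and mitosis windows and 52.7% over all windows, so windows of different base composition were compared. Letters that match a motif are a description of the sequence and not a binding site. The 6 sequences printed here are from the genes given library by library with the most matches, where Ccnb2 shares the last place with Cdca8 and Pola1, at 5 matches each, and was taken by alphabetical order of symbols. They hold the 250 bases before the start, 5′ to 3′ on the strand of the gene, from RefSeq, with the matches in capitals. Top2a is at chr11:99024190-99024439 (minus strand), Cdk1 at chr10:69352913-69353162 (minus), Mcm6 at chr1:128359706-128359955 (minus), Ube2c at chr2:164769679-164769928 (plus), Mki67 at chr7:135716380-135716629 (minus) and Ccnb2 at chr9:70421555-70421804 (minus).
Top2a: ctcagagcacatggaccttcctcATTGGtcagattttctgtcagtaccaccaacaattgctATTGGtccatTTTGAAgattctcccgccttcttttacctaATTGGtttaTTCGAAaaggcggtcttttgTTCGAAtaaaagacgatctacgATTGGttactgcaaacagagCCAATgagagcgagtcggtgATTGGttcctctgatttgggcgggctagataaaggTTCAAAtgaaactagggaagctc
Cdk1: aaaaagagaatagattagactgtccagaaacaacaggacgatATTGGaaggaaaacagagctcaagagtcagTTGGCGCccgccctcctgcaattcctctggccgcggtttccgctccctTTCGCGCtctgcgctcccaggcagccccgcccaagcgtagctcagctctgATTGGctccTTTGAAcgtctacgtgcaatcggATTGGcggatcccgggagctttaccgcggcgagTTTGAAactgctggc
Mcm6: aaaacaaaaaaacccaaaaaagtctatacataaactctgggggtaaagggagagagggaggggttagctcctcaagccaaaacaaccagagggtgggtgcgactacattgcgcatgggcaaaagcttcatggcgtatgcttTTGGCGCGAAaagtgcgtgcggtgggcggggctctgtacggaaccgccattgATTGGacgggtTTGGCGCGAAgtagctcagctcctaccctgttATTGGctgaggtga
Ube2c: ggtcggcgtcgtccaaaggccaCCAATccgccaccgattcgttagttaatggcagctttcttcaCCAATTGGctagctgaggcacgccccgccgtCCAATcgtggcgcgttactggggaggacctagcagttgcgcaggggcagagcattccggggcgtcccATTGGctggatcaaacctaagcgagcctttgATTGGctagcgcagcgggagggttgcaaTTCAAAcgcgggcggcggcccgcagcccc
Mki67: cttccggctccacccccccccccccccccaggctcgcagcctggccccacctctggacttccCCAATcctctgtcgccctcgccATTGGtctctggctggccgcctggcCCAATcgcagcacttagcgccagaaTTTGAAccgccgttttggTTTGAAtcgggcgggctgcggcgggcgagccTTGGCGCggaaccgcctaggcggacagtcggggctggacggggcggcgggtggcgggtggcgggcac
Ccnb2: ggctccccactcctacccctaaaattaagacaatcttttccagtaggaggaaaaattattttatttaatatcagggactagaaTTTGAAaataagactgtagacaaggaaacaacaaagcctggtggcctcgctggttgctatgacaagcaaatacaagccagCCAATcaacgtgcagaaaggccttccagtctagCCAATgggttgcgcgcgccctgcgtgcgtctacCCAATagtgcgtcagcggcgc
Top2a showed 4 CHR and 6 CCAAT matches and no E2F match before its start, and Ube2c 1 and 6. Mcm6 showed 4 E2F matches before its start, which form 2 stretches because the letters overlap on the 2 strands, with 2 CCAAT and 0 CHR matches. Cdk1 and Mki67 held all 3 motifs. Mcm6 and Ccnb2 each had 1 further match after the start, in bases not printed.

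Among the replication genes, 17 of 20 rose in wild type tumours, with a median log2 change of 4.15. All 6 genes of the MCM helicase, Mcm2 to Mcm7, rose by 3.77 to 5.68. Mcm6, the helicase gene with the highest tumour level, was at 288, 293 and 88.9 FPKM in wild type tumours and 207 and 238 FPKM in Eltd1-/- tumours. The brains held 26.8, 16.7 and 5.17 FPKM (wild type) and 28.2, 4.00 and 3.84 FPKM (Eltd1-/-). The lowest tumour library of Mcm6, wild type replicate 3, was thus still above every brain library, and the log2 change was 3.77 ± 0.77 (SE; adjusted p = 0.00796). Mcm4, with the lowest tumour level of the helicase genes, was at 70.0, 44.5 and 27.8 FPKM in wild type and 26.1 and 34.5 FPKM in Eltd1-/- tumours, against 2.76, 0 and 4.75 and 2.54, 4.04 and 2.94 FPKM in the brains of the same order. Its groups did not overlap either, and it rose by 4.02 ± 0.67 (SE; adjusted p = 0.00286).

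Of the 5 genes that license and fire origins, 4 rose in wild type tumours and Cdt1 did not pass. Cdc45, a cofactor of the active helicase, was at 53.3, 63.2 and 28.5 FPKM in wild type tumours, 44.4 and 48.8 FPKM in Eltd1-/- tumours, 0, 0 and 2.81 FPKM in wild type brains and 2.27, 2.29 and 1.76 FPKM in Eltd1-/- brains, a change of 4.91 ± 0.63 in wild type (SE; adjusted p = 0.000659). Orc1, the largest subunit of the origin recognition complex, was low throughout, at 4.27, 8.49 and 1.72 FPKM in wild type and 3.92 and 2.52 FPKM in Eltd1-/- tumours. It was listed at 0 in 5 of the 6 brains and at 0.799 FPKM in Eltd1-/- brain replicate 3, so no fold is given. Mcm10 and the loading factor Cdc6 rose as well, with tumour levels of 23.1 to 84.4 FPKM and 6.16 to 23.7 FPKM.

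Cdt1, which with Cdc6 loads the helicase (chr8:122568015-122573130), was listed at 0 in several libraries. It was at 0, 19.8 and 0 FPKM in wild type tumours and 40.6 and 47.7 FPKM in Eltd1-/- tumours, with 0, 9.99 and 0 FPKM in wild type brains and 0.674, 1.04 and 0.807 FPKM in Eltd1-/- brains. In the 2 wild type tumour libraries where Cdt1 was at 0, all 31 expressed genes within 1 Mb of it were also listed at 0, although 1.31% and 1.06% of the expressed genes of these libraries were at 0 in all. The log2 change in wild type mice was 0.31 ± 1.20 (SE; adjusted p = 0.887). It became -1.15 with tumour replicate 2 left out and -0.27 with brain replicate 1 or brain replicate 3 left out.

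All 4 genes of the polymerases and clamp rose in wild type tumours, by 2.00 (Pcna) to 4.66 (Pole). Pcna, the sliding clamp, which also serves DNA repair, had the highest brain level of all 48 genes. It was at 154, 88.0 and 84.2 FPKM in wild type tumours and 122 and 185 FPKM in Eltd1-/- tumours, against 44.6, 10.6 and 34.3 FPKM in wild type brains and 19.5, 26.2 and 51.0 FPKM in Eltd1-/- brains. No tumour library of Pcna overlapped the brains, but its rise was the smallest of the members that passed. It missed the threshold with tumour replicate 1 left out (limma, adjusted p = 0.0890) and with brain replicate 2 left out (adjusted p = 0.0758), with 0.00137 to 0.103 over all its alternatives. Pola1, the catalytic subunit of polymerase alpha, was at 29.1, 13.1 and 21.3 FPKM and 17.0 and 33.2 FPKM in wild type and Eltd1-/- tumours and at 0.875, 0 and 1.23 FPKM and 0, 0.348 and 4.61 FPKM in the brains, a change of 3.71 ± 0.74 in wild type (SE; adjusted p = 0.00732). The primase Prim1 and Pole, the catalytic subunit of polymerase epsilon, rose by 2.63 and 4.66.

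For nucleotide supply, 3 of 4 genes rose in wild type tumours. Rrm1, the large subunit of ribonucleotide reductase, was at 83.9, 75.6 and 40.9 FPKM in wild type tumours and 39.9 and 54.7 FPKM in Eltd1-/- tumours. Its brain values were 0, 2.79 and 5.29 FPKM (wild type) and 3.78, 7.89 and 4.70 FPKM (Eltd1-/-). The groups did not overlap, and the change was 4.49 ± 0.66 in wild type (SE; adjusted p = 0.00139). The small subunit Rrm2 and the thymidine kinase Tk1 rose by 5.42 and 4.27. Tyms, the thymidylate synthase, did not pass. Its levels were 45.6, 0 and 25.9 FPKM in wild type tumours, 62.0 and 38.9 FPKM in Eltd1-/- tumours, 39.9, 0.437 and 2.17 FPKM in wild type brains and 0.970, 0.452 and 1.84 FPKM in Eltd1-/- brains, so that 1 tumour library was at 0, below all 6 brains, and wild type brain replicate 1 lay among the other 4 tumours, which were above the other 5 brains. The change was 0.92 ± 1.43 in wild type (SE; adjusted p = 0.686), and it became -0.14 with tumour replicate 1 left out and -0.08 with brain replicate 2 left out. The 0 stood in wild type tumour replicate 2, where 3 of the 16 expressed genes within 1 Mb of Tyms were also at 0.

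E2f1, a transcription factor of the replication genes, was the member with the lowest mean tumour level. It was at 3.89, 0 and 1.05 FPKM in wild type tumours, 2.85 and 4.79 FPKM in Eltd1-/- tumours, 0.411, 2.64 and 1.57 FPKM in wild type brains and 1.13, 0 and 7.29 FPKM in Eltd1-/- brains. The change in wild type was -0.13 ± 0.84 (SE; adjusted p = 0.934), with a 95% interval from -1.98 to 1.71, and tumour and brain libraries overlapped. Its sign turned with scaling, to 0.011 by the upper quartile and 0.78 by the endothelial marker sum. With tumour replicate 2 left out the change was 0.42, and with brain replicate 2 left out it was 0.18.

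Among the mitosis genes, 27 of 28 rose in wild type tumours, with a median log2 change of 4.94, or 4.79 without the 6 genes listed at 0 in every wild type brain. Foxm1, a transcription factor of the mitosis genes, was at 39.2, 23.9 and 42.1 FPKM in wild type tumours, 31.6 and 18.9 FPKM in Eltd1-/- tumours, 0, 0.540 and 1.12 FPKM in wild type brains and 0, 9.03 and 3.31 FPKM in Eltd1-/- brains. It rose by 4.56 ± 0.79 in wild type (SE; adjusted p = 0.00352), and all tumour libraries were above all brain libraries.

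All 6 mitotic cyclins and kinases rose in wild type tumours. Cdk1, the kinase that starts mitosis, was at 172, 164 and 91.3 FPKM in wild type tumours and 178 and 165 FPKM in Eltd1-/- tumours. In the brains it was at 0, 0 and 0.514 FPKM (wild type) and 5.61, 12.5 and 3.34 FPKM (Eltd1-/-). Every tumour library was above every brain library, with a change of 6.91 ± 0.51 in wild type (SE; adjusted p = 7.24e-05). Ccnb2, a B-type cyclin that activates Cdk1, was at 35.5, 39.1 and 15.5 FPKM in wild type tumours and 23.8 and 32.7 FPKM in Eltd1-/- tumours, and was listed at 0 in all 6 brains. The cyclins Ccna2 and Ccnb1 and the kinases Plk1 and Aurka were at 33.5 to 114 FPKM, 67.5 to 177 FPKM, 47.3 to 96.5 FPKM and 80.0 to 139.5 FPKM in the 5 tumours. One brain library held Aurka at 17.9 FPKM (wild type replicate 1), and the other 5 were at 0.940 FPKM or less.

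Of the 6 genes of the spindle checkpoint and of the ubiquitination that starts anaphase, 5 rose in wild type tumours. Cdc20, an activator of the anaphase-promoting complex, was at 154, 127 and 91.8 FPKM in wild type tumours and 114 and 129.6 FPKM in Eltd1-/- tumours. The brains held 0.617, 0 and 0.907 FPKM (wild type) and 0, 0 and 0.513 FPKM (Eltd1-/-), all under 1 FPKM, and the change was 6.40 ± 0.50 in wild type (SE; adjusted p = 7.24e-05). Ube2c, an E2 enzyme that works with the same complex, was at 15.9, 31.7 and 0 FPKM in wild type tumours and 9.63 and 15.1 FPKM in Eltd1-/- tumours, and was listed at 0 in all 6 brains. It did not pass in wild type mice (limma, adjusted p = 0.0590). The 0 stood in wild type tumour replicate 3, where 0 of 21 expressed genes within 1 Mb were at 0, and Ube2c passed without that library (limma, adjusted p = 0.000482, with 0.000482 to 0.212 over its alternatives). The checkpoint genes Bub1, Bub1b, Mad2l1 and Ttk rose, and Bub1 was the most uneven of them, at 15.9, 119 and 8.01 FPKM in wild type tumours and 15.2 and 33.1 FPKM in Eltd1-/- tumours.

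The chromosomal passenger complex, which corrects wrong attachments to the spindle, was represented by 3 genes that all rose in wild type tumours. Its kinase Aurkb was at 48.9, 29.4 and 9.94 FPKM in wild type and 31.6 and 22.3 FPKM in Eltd1-/- tumours, and at 0, 0 and 0.388 FPKM and 0, 16.6 and 0.0983 FPKM in the brains, a change of 4.52 ± 1.02 in wild type (SE; adjusted p = 0.0120). Eltd1-/- brain replicate 2 lay within the tumour range of Aurkb. Birc5 (survivin) was at 82.3, 52.3 and 38.2 FPKM and 77.8 and 65.3 FPKM in wild type and Eltd1-/- tumours and at 0, 0 and 2.17 FPKM and 0, 0 and 1.92 FPKM in the brains, a change of 5.25 ± 0.67 in wild type (SE; adjusted p = 0.000673). Cdca8 (borealin) was at 51.2, 54.8 and 9.22 FPKM and 28.7 and 30.8 FPKM in the tumours, at 5.13, 0 and 0 FPKM in wild type brains and listed at 0 in all 3 Eltd1-/- brains. Neither Birc5 nor Cdca8 overlapped between tumour and brain.

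All 3 centromere genes rose in wild type tumours. Cenpa, the histone H3 variant that marks the centromere, was at 66.7, 154 and 45.0 FPKM and 114 and 107 FPKM in wild type and Eltd1-/- tumours and at 13.9, 0 and 6.71 FPKM and 12.6, 18.3 and 0.254 FPKM in the brains. Its brain values ran from 0 to 18.3 FPKM, and its change of 4.01 ± 1.11 in wild type (SE; adjusted p = 0.0274) missed the threshold when single libraries were left out. Its adjusted p (limma) was 0.0662 and 0.0861 with tumour replicates 1 and 2 left out and 0.0865 with brain replicate 2 left out, with 0.00139 to 0.184 over all its alternatives. Cenpe, a kinesin of the kinetochore, was at 16.7, 6.28 and 10.2 FPKM and 28.5 and 17.2 FPKM in the tumours, at 0, 0 and 0.0470 FPKM in wild type brains and listed at 0 in all 3 Eltd1-/- brains. Cenpf, another kinetochore protein, was at 27.4, 11.2 and 30.6 FPKM and 41.3 and 17.8 FPKM in the tumours and at 0, 0 and 0.386 FPKM and 0.0682, 0 and 13.5 FPKM in the brains. Eltd1-/- brain replicate 3 was above the lowest tumour for Cenpf, and the other 5 brains were at 0.386 FPKM or less.

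All 7 genes of the spindle and of cytokinesis rose in wild type tumours. Prc1, which bundles microtubules in the midzone, was at 109, 103 and 69.5 FPKM in wild type and 72.5 and 70.0 FPKM in Eltd1-/- tumours. It was listed at 0 in 5 of 6 brains and at 1.25 FPKM in Eltd1-/- brain replicate 3. Kif23, a kinesin of the midzone, was at 31.9, 62.7 and 17.0 FPKM and 14.1 and 25.5 FPKM in the tumours and at 0.108, 0 and 0 FPKM and 0.773, 0 and 0.0498 FPKM in the brains, a change of 5.02 ± 0.63 in wild type (SE; adjusted p = 0.000607). All its brain values were under 1 FPKM, so Kif23 passed the filter through its tumour level alone. The spindle motor Kif11 and the cytokinesis kinesin Kif20a had the most even tumour levels of all 48 genes, at 49.0 to 65.4 FPKM and 59.0 to 80.9 FPKM, with coefficients of variation of 11.98% and 11.7% over the 5 tumours. Anln, an actin-binding protein of the cleavage furrow, had the highest mean brain level of the mitosis genes after Cenpa, at 3.83 to 9.21 FPKM in the 6 brains and 36.7 to 65.3 FPKM in the 5 tumours. It rose by 2.76 ± 0.45 in wild type (SE; adjusted p = 0.00252), the smallest rise of the mitosis genes that passed. Tpx2 and Nusap1, which bind spindle microtubules, rose by 5.55 and 2.98. Nusap1 missed the threshold with tumour replicate 1 left out (limma, adjusted p = 0.0617) and with brain replicate 2 left out (adjusted p = 0.0521), with 0.00069 to 0.115 over all its alternatives.

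Top2a, which untangles chromosomes before they part, and Mki67, a protein of the chromosome surface that is widely used as a proliferation marker, both rose. Top2a had the highest tumour level of all 48 genes, at 504, 406 and 265 FPKM in wild type tumours and 348 and 522 FPKM in Eltd1-/- tumours. Its brain levels were 3.45, 0.210 and 0.649 FPKM (wild type) and 3.54, 9.15 and 1.92 FPKM (Eltd1-/-). The lowest tumour was thus far above the highest brain, with an adjusted p of 7.24e-05 in wild type. Mki67 was much lower, at 26.0, 21.1 and 13.8 FPKM and 11.8 and 19.2 FPKM in wild type and Eltd1-/- tumours, and at 0, 1.22 and 0.220 FPKM and 0.834, 0.925 and 0.309 FPKM in the brains, a change of 3.89 ± 0.58 in wild type (SE; adjusted p = 0.00155).

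Within the tumours, mean levels ran from 2.52 FPKM (E2f1) to 409 FPKM (Top2a). After Top2a came Mcm6, Mcm7, Cdk1 and Mcm5, with means of 223, 191, 154 and 148 FPKM and library ranges that overlap, so that neighbours in this order cannot be told apart from their spread. The coefficient of variation over the 5 tumours had a median of 37.0% for replication and 32.1% for mitosis genes, and was above 100% only for Bub1 (120%) and Cdt1 (103%). Wild type tumour replicate 3 was the lowest of the 5 tumours for 28 of the 48 genes and the highest for 2. That library also had the lowest endothelial (410.0 FPKM), neural progenitor and glioma (1630 FPKM) and microglia and macrophage (104.0 FPKM) marker sums and the highest neuron marker sum (2928 FPKM) of the tumours, and their part was not tested. Wild type tumour replicate 2 was the highest for 19 genes and the lowest for 9. It had the highest endothelial (1008 FPKM) and glioma (2535 FPKM) marker sums of the tumours and the highest FPKM sum of all libraries, besides the zeros given above, and their part was not tested either. Together the 48 genes made up 0.449% to 0.723% of the FPKM sum in the tumours and 0.0161% to 0.0299% in the brains.

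The median levels of the replication and mitosis genes lay close together in tumour and apart in brain. The median over genes of the tumour mean was 45.8 FPKM for replication and 46.5 FPKM for mitosis genes, while that of the brain mean was 2.18 and 0.629 FPKM. As a share of the tumour mean, the brain mean had a median of 4.46% for replication and 1.16% for mitosis genes. The replication genes with the highest share were E2f1 (86.4%), Pcna (24.5%) and Tyms (22.1%, from 1 brain library), and the mitosis gene with the highest was Anln (13.8%). At least 4 of the 6 brains reached 1 FPKM for 10 of 20 replication genes and 4 of 28 mitosis genes. In each of the 6 brains the median log2(FPKM + 1) of the replication genes was above that of the mitosis genes, by 0.47 to 1.76, whereas in the 5 tumours the difference was from -0.33 to 0.37. Of the expressed genes, 6.15% and 4.26% were at 0 in wild type brain replicates 1 and 2, against 0.291% to 1.25% in the other brains. Zeros of members are thus weaker information in wild type brain replicates 1 and 2. In 4 of the 6 brains (replicates 1 and 2 of both genotypes) the mitosis median was 0, so that the difference there is the replication median alone. In replicate 3 of both genotypes, where neither median was 0, it was 1.34 (wild type) and 1.06 (Eltd1-/-). Summed FPKM of the mitosis genes over that of the replication genes was 1.18 to 1.58 in the tumours and 0.204 to 1.05 in the brains. The median log2 change of the replication genes was accordingly 0.79 below that of the mitosis genes in wild type and 0.56 below in Eltd1-/- mice. These differences were 0.52 and 0.54 without genes listed at 0 in a whole group. The replication minus mitosis median of single libraries had an SD of 0.34 within groups, which is not the error of these differences. The differences in log2 change were not tested, and they depended on the pseudocount (-2.05 in wild type with 0.1) and on wild type brain replicate 3 (-0.42 without it). Between 7 and 31 of the 48 genes were listed at 0 in a brain library, and 0 to 2 in a tumour library. The plot of all members by library shows both arms.

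**Figure D2:**
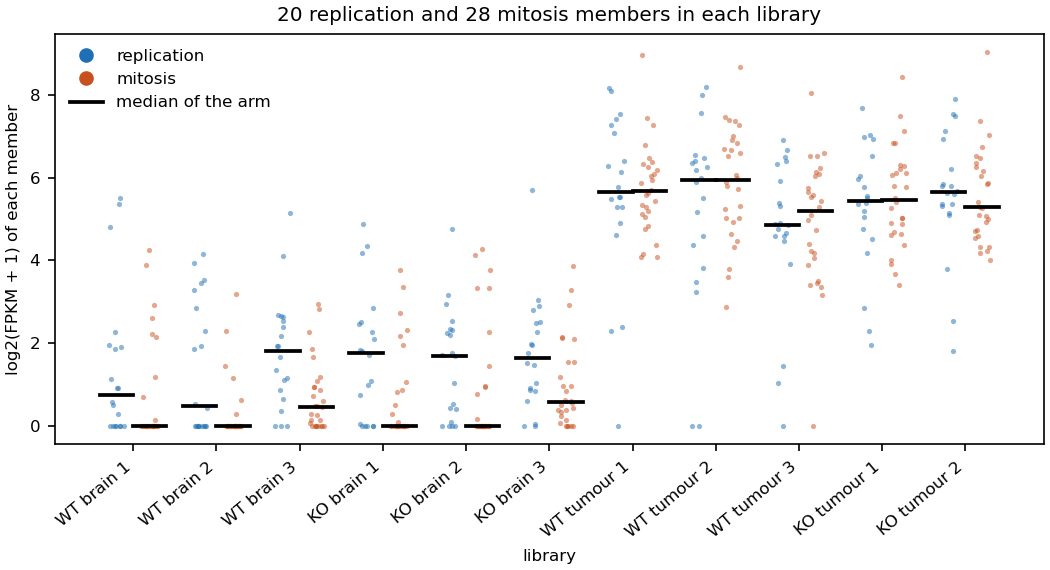
Level of each replication gene (blue points, 20) and mitosis gene (orange points, 28) as log2(FPKM + 1) on the vertical axis, for each of the 11 libraries on the horizontal axis, with a black line at the median of each set (WT, wild type; KO, Eltd1-/-). The pairs of black lines lie close together in the tumours (differences from -0.33 to 0.37), and in every brain the replication line is the higher one (by 0.47 to 1.76), with the mitosis line at 0 in 4 of the 6 brains.

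In Eltd1-/- mice, 39 of the 48 genes rose in tumour and 0 fell (limma, adjusted p under 0.05). Of all genes tested, 4.8% rose and 2.29% fell. The libraries compared are not those of the wild type comparison, but all 4 groups share 1 estimate of the spread. The tests of both genotypes are therefore not independent. The 39 were 16 of 20 replication and 23 of 28 mitosis genes, and all 39 had also risen in wild type. The median log2 change was 4.23, and 4.20 without the 5 genes at 0 in every Eltd1-/- brain, beside -0.18 over all genes. Cdc20 and Top2a were again among the largest, at 6.74 ± 0.56 (SE; adjusted p = 0.000266) and 6.38 ± 0.65 (SE; adjusted p = 0.000533), with Aurka at 6.35 ± 1.05 (SE; adjusted p = 0.00470). By role, the 39 genes were all 6 helicase genes, all 4 of the polymerases and clamp, all 6 cyclins and kinases, all 7 of the spindle and cytokinesis, 3 of 5 of licensing and firing, 3 of 4 of nucleotide supply, 5 of 6 of checkpoint and anaphase, 2 of 3 passengers, 1 of 3 of the centromere, and both Top2a and Mki67. The 9 genes that did not pass were Orc1, Cdt1, Tyms, E2f1, Foxm1, Ube2c, Aurkb, Cenpa and Cenpf. Except for E2f1, the groups did not overlap for any of them, since 47 of 48 genes had both tumours above all 3 brains, as did 22% of all genes tested. Foxm1 was at 2.86 ± 0.88 (SE; adjusted p = 0.0743), and Tyms at 4.64 ± 1.60 (SE; adjusted p = 0.102). The rises among all genes called were 67.7% of them, and 98.8% after scaling to the endothelial marker sum, where 46 of the 48 genes rose. With 2 tumour libraries, the count rested on both. It was 14 without replicate 1 and 16 without replicate 2, when 130 and 182 genes in all rose, beside 749 genes with both. The 14 members that passed without replicate 1 also passed without replicate 2, and they were Birc5, Ccnb1, Ccnb2, Cdc20, Cdk1, Cenpe, Kif11, Kif20a, Mcm5, Mcm10, Plk1, Prc1, Top2a and Tpx2. The count was 34, 36 and 36 without Eltd1-/- brain replicate 1, 2 and 3, when 447, 437 and 449 genes in all rose, beside 749. Mcm4, Rrm1 and Bub1 missed the threshold in each of these 3 fits, Pola1 and Pcna without replicate 1 or 2, and Mki67 without replicate 3, while Foxm1 and Aurkb passed without replicate 2 and Cenpf without replicate 3. In fits without an Eltd1-/- tumour, the lone tumour library is assumed to vary like the libraries of the other groups. The plot of the changes in both genotypes shows each of the 38 members above 0 in both brain groups once.

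**Figure D3:**
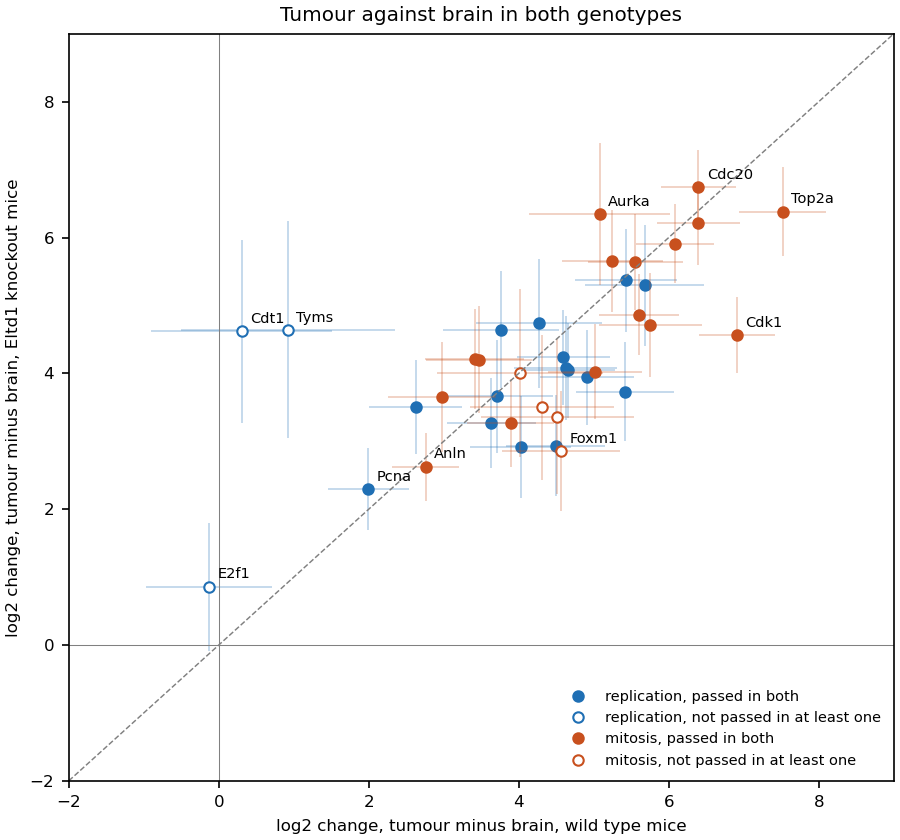
Log2 change from brain to tumour in wild type mice (horizontal axis) and in Eltd1-/- mice (vertical axis) for the 38 members above 0 in both brain groups, on log2(FPKM + 1), with bars of 1 SE and a dashed line where both are equal. Filled points passed in both genotypes and open points missed the threshold in at least one, and Cdt1 and Tyms, with zeros in wild type tumours, lie farthest above the line.

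Whether loss of Eltd1 changed these genes was asked within each tissue. In tumours, 0 of the 48 genes passed with limma (1 at an unadjusted p under 0.05, Cdt1), where 0.0192% of all genes tested passed and 3.11% had an unadjusted p under 0.05. The median log2 difference, Eltd1-/- minus wild type, was -0.01 over the 48 genes (-0.08 for replication, -0.00 for mitosis), beside 0.16 over all genes. Both Eltd1-/- tumours lay above all 3 wild type tumours for 4 of the 48 genes (Cdt1, Tk1, Mad2l1 and Cenpe), as for 10.8% of all genes tested, and below them for 0, as for 4.61%. Cenpe, at 28.5 and 17.2 FPKM against 16.7, 6.28 and 10.2 FPKM, differed by 1.03 ± 0.61 (SE; adjusted p = 1). For Cdt1 the difference was 4.03 ± 1.35 (SE; unadjusted p = 0.0116, adjusted p = 1), and the wild type libraries at 0 are those in which its neighbours were also at 0. For Top2a the difference was 0.17, with a 95% interval from -1.26 to 1.60, and for Mki67 it was -0.37, with an interval from -1.79 to 1.06. The 95% interval held 0 for 47 of 48 genes and lay within 2 log2 units of 0 for 23 and within 1 unit for 0 of them, with a median distance of 1.61 from its centre to its ends. With 2 and 3 libraries, smaller differences were therefore not detectable for most of these genes. These intervals are not adjusted for the number of genes tested, so larger differences could also miss the threshold, as that of Cdt1 did. It is not shown that levels were alike.

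In healthy brain, 0 of the 48 genes passed between genotypes (limma), and 0.00641% of all genes tested did. Cdk1 and Top2a had an unadjusted p under 0.05, 2 of 48 members beside 4.34% of all genes tested. Cdk1 was at 5.61, 12.5 and 3.34 FPKM in Eltd1-/- and 0, 0 and 0.514 FPKM in wild type brains, the only member whose groups did not overlap, with a difference of 2.67 ± 0.51 (SE; unadjusted p = 0.000224, adjusted p = 0.389). In wild type brain replicates 1 and 2, where Cdk1 was at 0, 6.15% and 4.26% of the expressed genes were at 0. That share was 0.291% to 1.25% in the other brains, so these zeros are weaker information, and their part was not tested. All 3 Eltd1-/- brains lay above all 3 wild type brains for 4.68% of all genes tested. Top2a differed by 1.31 ± 0.58 (SE; unadjusted p = 0.0458, adjusted p = 1) and its groups overlapped. The median difference was 0.19 over the 48 genes, beside 0.02 over all genes, and the 95% interval held 0 for 46 of them. The difference between the 2 genotypes in the change from brain to tumour was tested as an interaction, and 0 of the 48 genes passed (limma), as did 0.00641% of all genes. Members with an unadjusted p under 0.05 were Cdk1 and Cdt1, 2 of 48, beside 3.17% of all genes tested. Their differences were -2.34 ± 0.76 and 4.31 ± 1.81 (SE), each with an adjusted p of 1 (limma). Both include the libraries described above in which these genes were at 0.

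Other genes of the same pathways were taken from lists and compared between wild type tumour and brain in the same fit. Over all genes tested, 7.7% rose and 11.7% fell in that comparison. Of 33 further replication factors, 12 rose and 0 fell, with a median log2 change of 1.71. Those with the smallest p were Lig1, the ligase that joins Okazaki fragments (3.52 ± 0.41, SE; adjusted p = 0.000429), Pola2 and Pole2, subunits of polymerases alpha and epsilon (3.25 and 3.22). Lig1 was at 36.7 to 60.1 FPKM in the 5 tumours and 3.29 to 6.03 FPKM in the 6 brains. Of 40 further mitosis factors, 33 rose and 1 fell, with a median of 4.17, or 4.04 without the 10 genes at 0 in every wild type brain. The chromosome motor Kif22 rose by 5.83 ± 0.58 (SE; adjusted p = 0.000212) and the kinase Melk by 5.24 ± 0.54 (SE; adjusted p = 0.000259). The condensin subunit Ncapg was at 46.0, 57.2 and 29.3 FPKM in wild type tumours and listed at 0 in all 3 wild type brains. The gene that fell was Zwint, which encodes a kinetochore protein. It was at 186, 312 and 552 FPKM in wild type tumours and 1009.6, 1006 and 923 FPKM in wild type brains, a change of -1.62 ± 0.41 (SE; adjusted p = 0.0198) that was -0.04 and did not pass when libraries were scaled to the endothelial marker sum. Zwint in Eltd1-/- mice was at 287 and 328 FPKM in tumour and 1244, 483 and 936 FPKM in brain and did not pass (adjusted p = 0.0857). The neuron marker sum, in the same order of libraries, was 101.0, 421 and 2928 FPKM in wild type and 685 and 1402 FPKM in Eltd1-/- tumours. It was 4703 to 6460 FPKM in the brains, and its part in the level of Zwint was not tested. For Eltd1-/- mice, 6 of the 33 replication and 30 of the 40 mitosis factors rose and 0 of either fell, beside 4.8% and 2.29% of all genes tested.

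Of 9 cyclins and kinases of G1, the stage before replication, 4 rose in wild type tumours (Ccnd1, Ccnd3, Cdk4 and Cdk6) and 0 fell. The share of all genes tested that rose, for this and the next lists in wild type, was 7.7%. Cyclin D1, Ccnd1, was at 375, 477 and 360.5 FPKM in wild type tumours and 6.37, 46.6 and 35.9 FPKM in wild type brains, a change of 4.10 ± 0.58 (SE; adjusted p = 0.00111). Of 17 genes of the E2F and retinoblastoma family, 6 rose and 0 fell (E2f2, E2f7, E2f8, Mybl2, Rbl1 and Lin9), with a median over the 17 of 0.66. E2f8, a repressor of E2F target genes, was at 22.7, 20.8 and 23.3 FPKM in wild type tumours and 0, 0 and 0.110 FPKM in wild type brains, and rose by 4.49 ± 0.50 (SE; adjusted p = 0.000396). E2f7, a like repressor, and Mybl2, a partner of the MuvB complex, rose by 4.43 and 4.20. Among 7 inhibitors of cyclin-dependent kinases, 1 rose, Cdkn2a, which encodes p16 and p19ARF. It was at 128, 28.8 and 51.5 FPKM in wild type and 105 and 118 FPKM in Eltd1-/- tumours and at 0.539, 0 and 0 FPKM and 0, 0 and 4.59 FPKM in the brains, a change of 5.67 ± 0.77 in wild type (SE; adjusted p = 0.000914). Of 6 antiproliferative genes, 4 fell in wild type tumours and 0 rose, where 11.7% of all genes tested fell. Klf2, a factor induced by blood flow in endothelial cells, was at 15.6, 27.1 and 14.8 FPKM in wild type tumours and 101, 118 and 143 FPKM in wild type brains, a change of -2.63 ± 0.33 (SE; adjusted p = 0.000643), and Btg2, Klf4 and Tob1 changed by -2.26, -1.84 and -1.71. These falls depended on the scaling. Klf2 fell under all 3 other scalings, by 1.09 on the log2 scale with libraries scaled to the endothelial marker sum, while 2 of the 6 fell after upper quartile scaling, 2 after quantile normalization, and 1 fell and 1 rose after scaling to the endothelial marker sum. Of the 15607 genes tested, 1299, 1407 and 160 fell under these 3 scalings, and 4058 rose under the last. The endothelial marker sum was lower in tumour too, at 410.0 to 1008 FPKM against 1899 to 2093 FPKM in wild type brain, and its part in this was not tested. In Eltd1-/- mice, 2 of the 9 G1 genes, 2 of the 17 of the E2F and retinoblastoma family and Cdkn2a, 1 of the 7 inhibitors, rose. Of all genes tested, 4.8% did. Among the 6 antiproliferative genes, 2 (Klf2 and Klf4) fell, beside 2.29% of all genes tested.

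**Figure D4:**
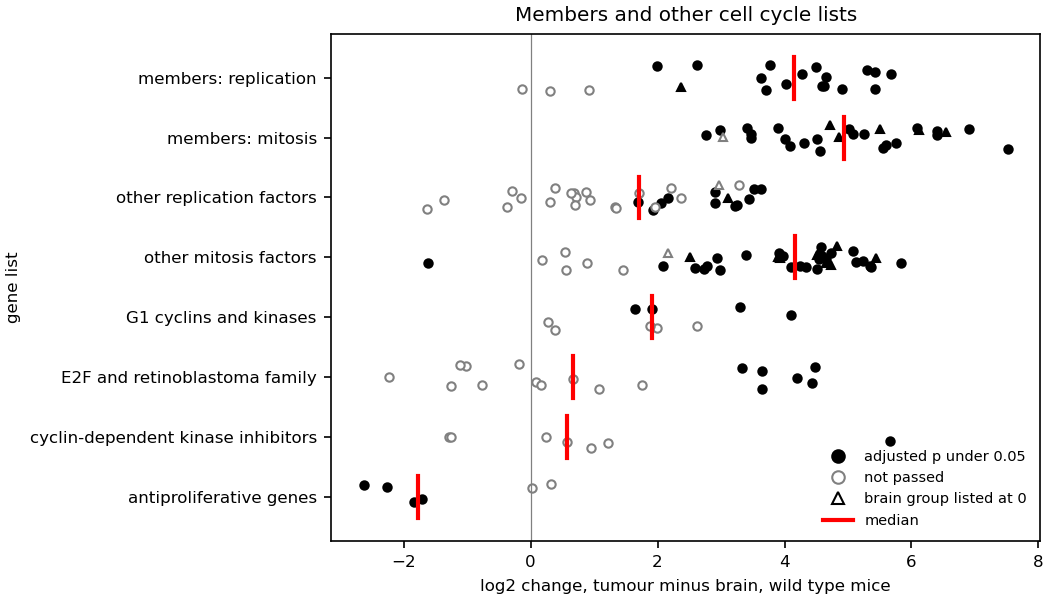
Log2 change from brain to tumour in wild type mice, on log2(FPKM + 1), for each gene (points) of the replication and mitosis members and of the 6 further lists (rows), with a red line at the median of each. Filled points passed the limma test at an adjusted p under 0.05, triangles mark genes listed at 0 in every wild type brain, whose fitted change is not a fold, and the medians run from -1.78 (antiproliferative genes) to 4.94 (mitosis members).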

How the data were processed

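RNA recovered in pull-downs of GFP-tagged ribosomes was analysed, in 11 libraries. The authors deposited FPKM values per gene, made with TopHat2 2.1.1 and Cufflinks 2.2.1 on GRCm38, per the submitters' processing notes. Annotation and strand setting: not given in the sources used here. Depth is unknown: the commonest ratio between the low values of 2 libraries held for 0.324% to 2.87% of low genes over 44 pairs of libraries, so whole reads could not be recovered. A 0 in Cufflinks output can be a failed estimate. Of 46073 entries per file, 363 shared 176 symbols and were summed, leaving 45886 genes. No member was affected.

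Genes with at least 1 FPKM in at least 2 libraries (15607) were tested on log2(FPKM + 1) with limma 3.58.1 in R 4.3.3, with 4 groups in 1 fit, 7 residual degrees of freedom, a variance trend and 5 contrasts. Benjamini-Hochberg adjustment ran over all genes tested, contrast by contrast (threshold 0.05), and the fit was tested on simulated data. Fold changes on this scale understate changes of low genes. Replicate numbers follow accession order and pair nothing. Expressed neighbours are genes within 1 Mb with a median of at least 5 FPKM. Pathway genes named are the up to 3 with the smallest p per list and any that passed in the opposite direction. Other pathway genes named in small counts were chosen after their values were seen. Library values are given for the highest and lowest tumour mean of each role (all of roles with 3 or fewer) and for members that did not pass in wild type. The members and lists were chosen with earlier results of these data known. Alternatives covered the pseudocount, the filter, the scaling, the variance trend, library weights, the groups fitted, repeated symbols and each library left out.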

Additional observations from a re-analysis of the deposited data

How the results depend on the processing

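Over all alternatives, 2038 results for single genes kept direction and call, 110 lost the call, 43 gained it and 13 changed sign. Of all genes tested, 1201 rose in wild type mice in the main fit, 429 with only the groups compared and 1973 with library weights. With 1 library left out, 802 to 1351 rose. In wild type mice the count of rising members was 33 (only the groups compared) to 46 (library weights), and 41 to 45 with 1 library left out. In Eltd1-/- mice it was 14 to 42 with 1 library left out (2 to 18 for replication, 12 to 24 for mitosis), lowest without Eltd1-/- tumour replicate 1, and a pseudocount of 0.1 left 7 replication genes. Between tumours of both genotypes, library weights gave 1 member past the threshold, a replication gene, Cdt1. The replication minus mitosis median in wild type was -2.05 (pseudocount 0.1), -1.19 (0.5), -0.41 (quantile normalization), -1.29 (means) and -1.07 to -0.42 with 1 library left out. It was -1.79 (0.1) and -0.96 (0.5) in Eltd1-/- mice. Between brains it was -0.60 (0.1), and in the interaction 0.44 (0.1) and 0.42 (means). Signs turned in wild type for 3 members without a call. Cdt1 was -0.50 with library weights, -1.15 with wild type tumour replicates 2 and 3 both left out, and -1.15 to 1.46 with 1 left out. Tyms was -0.14 to 2.63 with 1 left out. E2f1 was 0.011 (upper quartile), 0.78 (endothelial sum), 0.70 (library weights), 1.05 (replicates 2 and 3 out) and -0.72 to 0.42 with 1 left out. The cause was not tested. Over all genes, 3025 passed in wild type, beside 614 with only the groups compared, 4929 with library weights, and 1818, 1923 and 1953 without wild type tumour replicate 1, brain replicate 1 and brain replicate 2. The Eltd1-/- comparison had 1106, beside 2802, 4124, 1822 (quantile normalization), 2349 (endothelial sum), 710 (pseudocount 0.1) and 147 to 2009 with 1 library left out. The filter of 5 FPKM left no value for E2f1 and Orc1. No paired analysis was possible because the replicate numbers follow accession order and the labels pair no samples. With unknown depth, members near 0 in brain have changes set mainly by the pseudocount, and 2 Eltd1-/- tumours limit the genotype comparisons.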
